A study of Mus musculus with 12 samples.

Results

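The potassium channel genes of mouse fat were taken as all rows of the count table whose symbol begins with Kcn, followed by lower-case letters and a digit. This gave 94 of 23420 genes. The set holds 40 voltage-gated pore or modifier subunits, 12 of their auxiliary subunits, 15 inward rectifiers, 14 two-pore channels, 8 calcium- or sodium-activated pores, 4 beta subunits of the BK channel and the noncoding RNA Kcnq1ot1. The calcium- or sodium-activated group was formed by symbol (Kcnma, Kcnn, Kcnt and Kcnu), so not every member need be opened by these ions. RNA came from 4 adipose depots with 3 libraries each: the interscapular (iBAT) and supraclavicular (scBAT) depots of brown fat, and the inguinal (iWAT) and epididymal (eWAT) depots of white fat. All 12 libraries were from male C57BL/6 mice aged 8 weeks, untreated and kept at ambient temperature. No label says whether the 3 libraries of a depot came from separate animals, so the p-values measure the spread between these libraries, which may be technical.

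Potassium channels let potassium leave or enter the cell and so set the membrane potential. Voltage-gated channels open on depolarisation, inward rectifiers and two-pore channels carry current near the resting potential, and calcium-activated channels tie the membrane potential to calcium. In brown adipocytes the two-pore channel encoded by Kcnk3, known as TASK-1, is known to counter the depolarisation that follows adrenergic stimulation. ATP-sensitive channels are built from a Kir6 pore and a sulfonylurea receptor, and close when ATP is plentiful.

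Levels are given in CPM, each library's reads divided by its TMM-adjusted total, from libraries of 17159401 to 29262554 counts. A member was described where its mean reached 1 CPM in some depot, and 55 of the 94 did. The described members were 23 of the 40 voltage-gated pore or modifier subunits, 9 of the 12 auxiliary subunits, 9 of the 15 inward rectifiers, 7 of the 14 two-pore channels, 6 of the 8 calcium- or sodium-activated pores, none of the 4 BK beta subunits, and Kcnq1ot1. The minimum was reached by 43 members in iWAT, 37 in eWAT, 32 in iBAT and 36 in scBAT, and by 22 in every depot. Of the described members, 20 had their highest mean in iWAT, 19 in eWAT, 9 in scBAT and 7 in iBAT. Neither of these counts was made over all genes, so they do not set the members apart. In iWAT 2, however, Kcnc1, Kcnd1, Kcng1, Kcng3, Kcng4, Kcnh3, Kcnip2, Kcnj1, Kcnj10, Kcnj16 and Kcnk1 stood at 0 to 0.79 CPM. They reached a mean of 1 CPM in iWAT through iWAT 1 and 3, whose lymphocyte marker sums, given below, were highest. Kcnc1, Kcnd1, Kcng1, Kcng3, Kcnip2, Kcnj1, Kcnj10 and Kcnj16 also had their highest mean in iWAT. Both iWAT counts thus rest in part on these libraries. Of the members not described, 4, Kcnmb2, Kcnk15, Kcnk16 and Kcnv1, had no count in any library. In all, 33 members were neither described nor tested, and 6 were tested but stayed under 1 CPM. Kcnj1, Kcns1, Kcng1 and Kcng3 were described but did not pass the count filter for testing.

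The depot labels were checked against marker genes. All 5 brown adipocyte markers were higher and all 4 white adipocyte markers lower in the brown depots by the edgeR test described below, and Ucp1, which uncouples mitochondrial respiration, averaged 22.1 ± 8.66 CPM in iWAT, 45.6 ± 36.5 in eWAT, 2174 ± 331 in iBAT and 1969 ± 420 in scBAT (SD, n = 3 each). Other tissues were also present. Summed CPM of 8 B cell markers was 1267 in iWAT 1, 74.2 in iWAT 2 and 1736 in iWAT 3, against 4.76 to 39.5 in the libraries of the other depots, and 10 T cell markers summed to 1140, 76.1 and 1754 in the same iWAT libraries, against 12.4 to 24.8 elsewhere. The 16 skeletal muscle markers summed to 492 to 2378 in iBAT and 2153 to 7405 in scBAT, with scBAT 1 highest, against 71.7 to 266 in white fat. The 7 salivary gland markers summed to 6866 in scBAT 1 and 11671 in scBAT 2, against 2495 in scBAT 3 and 173 to 2442 elsewhere, with Smgc and Muc19, which mark the same glands, at or near 0 in every depot. In bulk tissue, fewer cells of a type and less RNA per cell cannot be told apart.

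**Figure D1:**
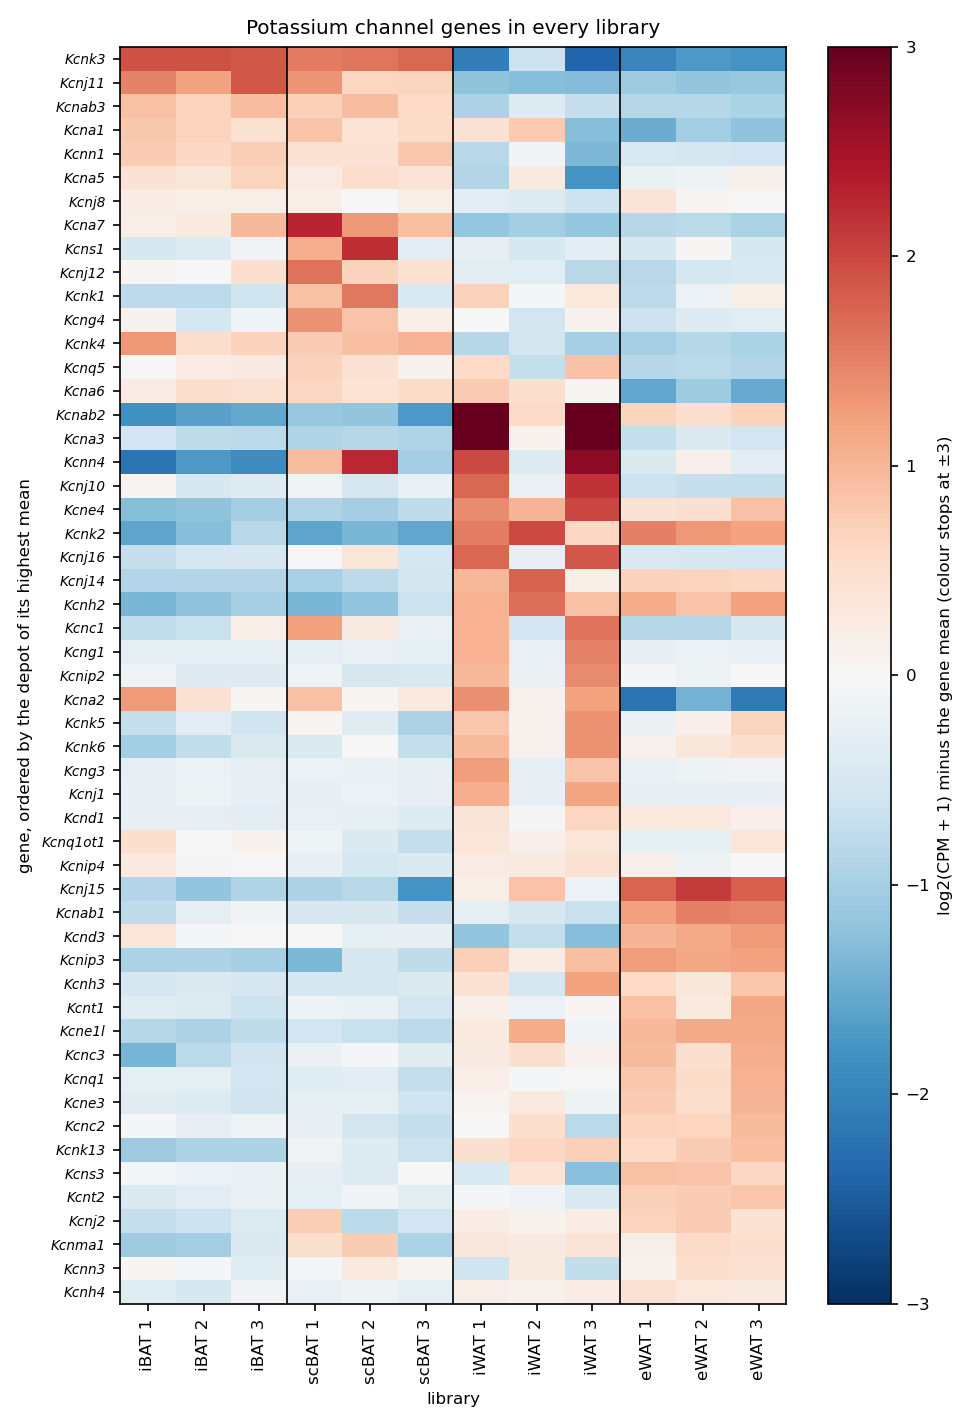
Heat map of 53 of the 55 described potassium channel genes (vertical axis, ordered by the depot of their highest mean) in the 12 libraries (horizontal axis). Colour is log2(CPM + 1) minus the gene's mean, red high and blue low, with colour stopping at ±3; Kcnk3 and Kcnj11 are red in the 6 brown libraries, and iWAT 1 and 3 differ from iWAT 2 in a block of genes that includes Kcnab2, Kcna3, Kcnj10 and Kcnj16.

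Kcnk3 supplied most of the potassium channel reads of brown fat. It measured 733, 729 and 706 CPM in iBAT, 573, 588 and 643 in scBAT, 45.3, 124 and 36.1 in iWAT, and 48.0, 58.2 and 55.3 in eWAT. Every brown library lay above every white library, and iWAT 2 stood above the other white libraries. Its share of the summed CPM of all 94 members was 66.6 to 69.1% in iBAT, 58.3 to 64.9% in scBAT, 8.72, 23.9 and 7.04% in iWAT 1, 2 and 3, and 10.6 to 12.5% in eWAT. The sum over members without Kcnk3 was 326 to 409 CPM in brown fat and 394 to 477 in white fat, ranges that overlap. The sum with Kcnk3 was 982 to 1101 in brown fat and 454 to 520 in white fat.

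The brown and white depots were compared as the mean of iBAT and scBAT against the mean of iWAT and eWAT, with edgeR's quasi-likelihood test and Benjamini-Hochberg adjustment over all 14898 tested genes. Kcnk3 was 10.9-fold higher in brown fat (log2 difference 3.44, SE 0.28, edgeR adjusted p = 1.84e-06). Pair by pair the log2 difference was 3.40 for iBAT against iWAT, 3.75 for iBAT against eWAT, 3.14 for scBAT against iWAT and 3.48 for scBAT against eWAT, with edgeR adjusted p of 9.24e-05 or below in each. Between scBAT and iBAT it was -0.26 (SE 0.36, edgeR adjusted p = 1), and between iWAT and eWAT 0.34 (SE 0.36, edgeR adjusted p = 0.466). The comparison of the white depots turned on the iWAT libraries: Kcnk3 was called higher in iWAT with iWAT 1 and 3 left out (log2 difference 1.22, edgeR adjusted p = 9.64e-05), where iWAT 2 alone is assumed to vary like the other depots, and lower in iWAT without iWAT 2 (-0.40, 0.0125). Summed pan-adipocyte markers were 4319, 7139 and 2862 CPM in iWAT 1, 2 and 3, in the same order as Kcnk3, and 6031 to 7068 in the other depots; their part in the iWAT spread was not tested.

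Divided by exon length, Kcnk3 stood at 190 ± 3.81 CPM per kb in iBAT and 158 ± 9.77 in scBAT (SD, n = 3). The next member in both depots was Kcnj8, at 17.4 ± 0.33 and 16.3 ± 1.29 CPM per kb, followed by Kcna5 at 12.4 ± 1.42 and 11.6 ± 1.08. In iBAT these steps exceeded the spread, as they did in scBAT. In iWAT the leading members were Kcnk3 at 18 ± 12.7 CPM per kb, Kcnn4 at 16.6 ± 13.1 and Kcnab2 at 16.6 ± 12.2, an order within the spread of the libraries. In eWAT the order was Kcns3 at 21.0 ± 2.12, Kcnj8 at 16.8 ± 2.52 and Kcnk3 at 14.1 ± 1.39 CPM per kb. Each pair of eWAT neighbours differed by less than the sum of their SDs, and Kcna5 followed at 8.36 ± 1.21. Kcnk3 lies on chromosome 5 at 30588170 to 30625270 (RefSeq, GRCm38.p6).

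Of the 57 members tested, 19 were higher in brown fat, where 31.3% of all tested genes were, and 28 were lower, where 38.1% of all tested genes were. These counts are a description and do not set the family apart. The median log2 difference was -0.90 over the 57 members and -0.11 over all tested genes. A stricter count asked for the same direction in each of the 4 pairs of a brown and a white depot. It held 9 members higher (19.5% of all tested genes) and 14 lower (16.5% of all tested genes). Among the 9 were Kcna7, Kcnab3, Kcnd2, Kcnf1, Kcnj11, Kcnk3, Kcnk4 and Kcnn1, with Kcnd2 and Kcnf1 under 1 CPM. Among the 14 were Kcnab2, Kcnd1, Kcne1l, Kcne3, Kcne4, Kcnh2, Kcnh3, Kcnh4, Kcnip3, Kcnj14, Kcnj15, Kcnk13 and Kcnk2. With scBAT 1 and 2 left out, which leaves 1 scBAT library, fewer members were lower in all 4 pairs, and not all of these were among the 14. The count in that setting was not made over all tested genes.

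**Figure D2:**
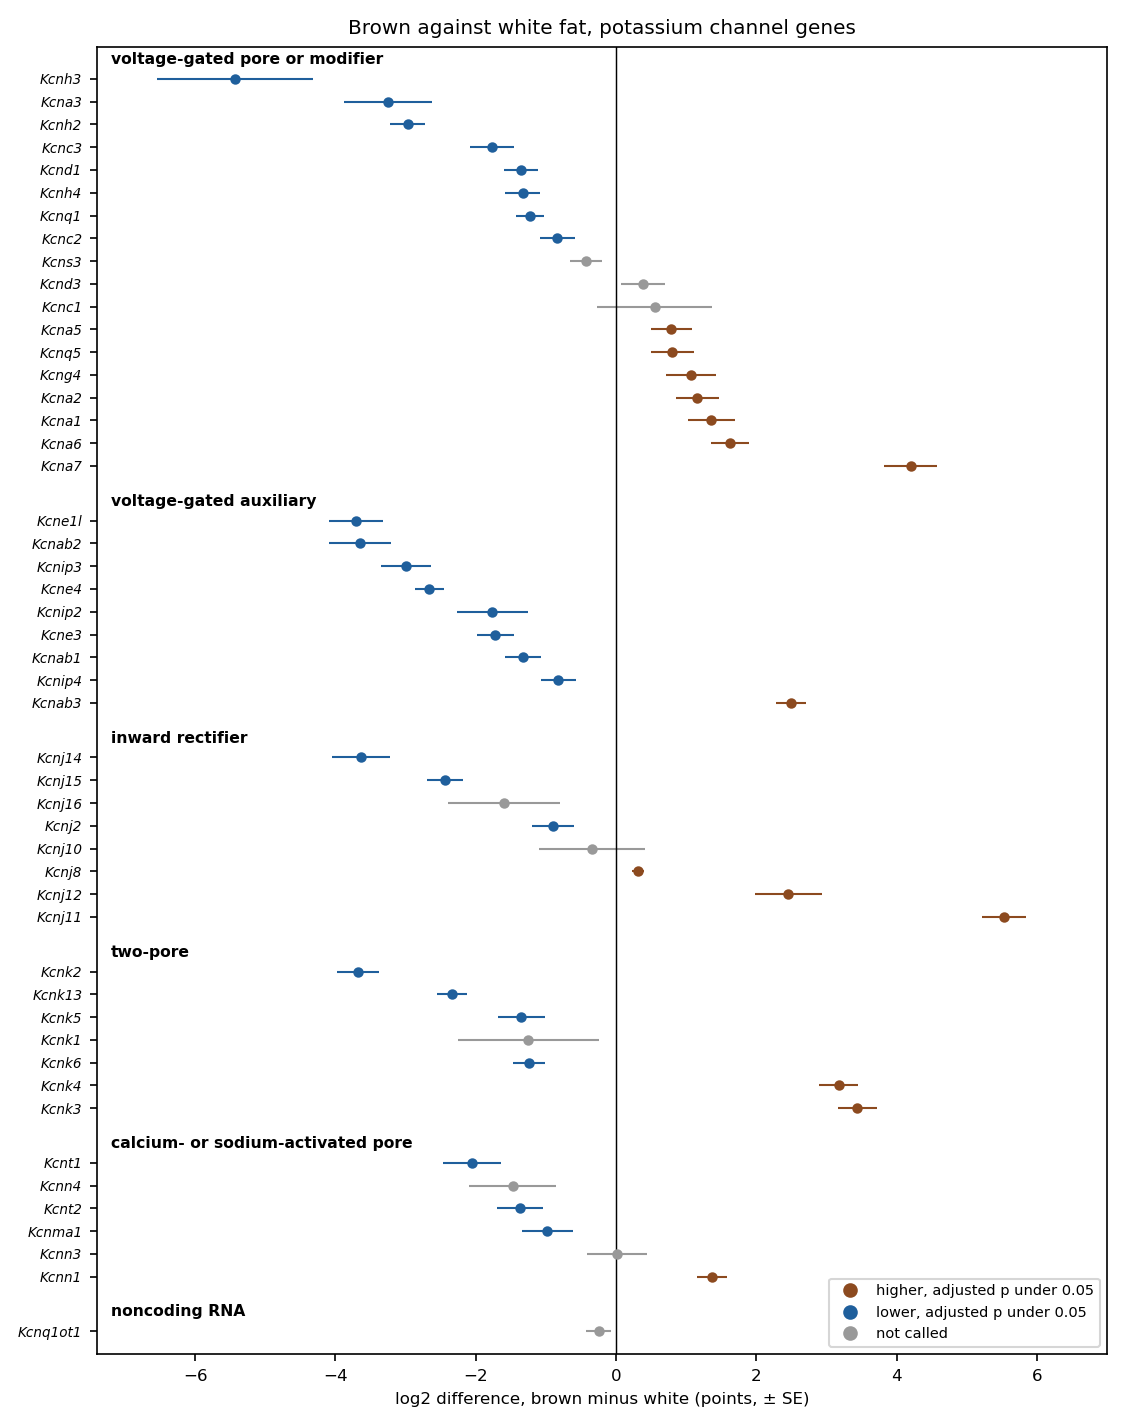
Log2 difference between brown and white fat (horizontal axis, mean of iBAT and scBAT minus mean of iWAT and eWAT) for 49 of the 51 described and tested members, grouped by family on the vertical axis. Points are edgeR estimates, bars are ± SE, and colour gives the call at adjusted p under 0.05; 14 of the members drawn are higher in brown fat, 26 lower and 9 not called.

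Stretches of promoter are shown for 4 members with some of the largest differences between brown and white fat in either direction, so that their upstream sequence can be set beside those differences. Each run is the 250 bases before a RefSeq start site (GRCm38.p6), 5′ to 3′ on the gene's strand, with matches to the E-box motif CANNTG in capitals. Kcnk4 and Kcna7 were higher in brown fat, and Kcnh2 and Kcne1l lower. The Kcnk4 and Kcnh2 windows lie within the gene's span, before an internal start site.
Kcnk4: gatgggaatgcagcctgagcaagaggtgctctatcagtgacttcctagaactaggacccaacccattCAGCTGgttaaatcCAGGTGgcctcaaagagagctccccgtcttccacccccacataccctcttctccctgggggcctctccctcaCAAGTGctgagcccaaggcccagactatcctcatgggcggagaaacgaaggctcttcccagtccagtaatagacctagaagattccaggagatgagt
Kcna7: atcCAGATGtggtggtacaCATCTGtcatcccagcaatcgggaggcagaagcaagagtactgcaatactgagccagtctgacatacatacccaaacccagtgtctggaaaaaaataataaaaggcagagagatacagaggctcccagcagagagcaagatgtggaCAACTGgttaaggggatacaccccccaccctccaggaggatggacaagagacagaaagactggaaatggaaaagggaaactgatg
Kcnh2: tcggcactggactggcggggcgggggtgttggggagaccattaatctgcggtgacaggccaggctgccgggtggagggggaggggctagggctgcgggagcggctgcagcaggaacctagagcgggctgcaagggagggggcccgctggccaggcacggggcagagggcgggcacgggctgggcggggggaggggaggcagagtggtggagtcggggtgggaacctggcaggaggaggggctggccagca
Kcne1l: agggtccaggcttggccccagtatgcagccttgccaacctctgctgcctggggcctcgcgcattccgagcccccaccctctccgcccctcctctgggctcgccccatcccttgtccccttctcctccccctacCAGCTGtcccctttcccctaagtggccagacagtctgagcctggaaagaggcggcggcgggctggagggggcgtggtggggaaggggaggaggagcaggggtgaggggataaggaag
They lie at chr19:6934516-6934765 (minus strand), chr7:45405710-45405959 (plus), chr5:24329592-24329841 (minus) and chrX:142306199-142306448 (minus). The motif, searched on both strands, occurred 3 times before Kcnk4, 3 times before Kcna7, once before Kcne1l and not in the Kcnh2 window. Over all 32851 promoters of this length that RefSeq gives, 66.2% held CANNTG, as did 63 of the 94 promoters given for 69 of the members (67%). The nuclear receptor motif AGGTCA was in 14% of all promoters and in 6 of those 94 (6.38%), and TGACGTCA, the cyclic AMP response element, in 1.55% and in none. None of these 3 motifs contains another. Median GC content was 58.6% in member promoters and 52.4% in all. GC content was not adjusted for.

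Among the 7 tested two-pore channels, which carry leak current, 2 were higher in brown fat and 4 lower (31.3% and 38.1% of all tested genes), and Kcnk1 was not called. Kcnk4, encoding the mechanosensitive TRAAK, measured 5.38, 2.74 and 3.17 CPM in iBAT, 3.35, 3.81 and 4.19 in scBAT, 0.42, 0.75 and 0.30 in iWAT, and 0.28, 0.44 and 0.34 in eWAT. Its brown and white libraries did not overlap (log2 difference 3.17, SE 0.28, edgeR adjusted p = 2.83e-06). Kcnk2, which encodes TREK-1, a channel gated by stretch and lipids, ran the other way. It was 0.67, 1.08 and 1.81 CPM in iBAT, 0.68, 0.95 and 0.70 in scBAT, 13.6, 18.7 and 6.72 in iWAT, and 13.4, 11.4 and 10.7 in eWAT. All white libraries were above all brown ones, and the fold was 12.8 (log2 difference -3.68, SE 0.31, edgeR adjusted p = 2.05e-06). Kcnk13, encoding THIK-1, was 5.05-fold lower in brown fat, and Kcnk5 (TASK-2) and Kcnk6 (TWIK-2) were 2.54-fold and 2.37-fold lower. None of the 7 two-pore channels was called between iWAT and eWAT with all libraries (17.7% of all tested genes were higher and 11% lower).

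Both pores of ATP-sensitive channels were expressed, with different distributions. Kcnj11, encoding Kir6.2, measured 6.11, 4.84 and 8.20 CPM in iBAT and 5.34, 2.97 and 3.04 in scBAT. It was near the detection limit in white fat, at 0.11, 0.04 and 0.03 CPM in iWAT and 0.21, 0.12 and 0.16 in eWAT, which rest on 1 to 6 reads a library. The brown and white libraries did not overlap, and the fitted log2 difference of 5.53 (SE 0.32, edgeR adjusted p = 1.82e-07) was the largest among the described members. Kcnj8, encoding Kir6.1 and known from vascular smooth muscle, measured 45.2, 43.6 and 43.8 CPM in iBAT, 43.7, 37.8 and 43.1 in scBAT, 29.8, 28.5 and 24.5 in iWAT, and 50.3, 39.8 and 38.6 in eWAT. Libraries of iWAT were lowest, and eWAT overlapped both brown depots. Kcnj8 was called higher in brown fat by 1.25-fold (log2 difference 0.32, edgeR adjusted p = 0.00749), and lower in iWAT than in eWAT (log2 difference -0.64, edgeR adjusted p = 0.00772). With iWAT 1 and 3 left out the second difference was -0.57 and not called (edgeR adjusted p = 0.0643).

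The sulfonylurea receptors that partner these pores showed a like split. Abcc8 (SUR1) averaged 0.08 ± 0.04 CPM in iWAT, 0.21 ± 0.06 in eWAT, 1.01 ± 0.09 in iBAT and 0.56 ± 0.18 in scBAT, and was higher in brown fat (log2 difference 2.53, SE 0.30, edgeR adjusted p = 2.74e-05). Abcc9 (SUR2) stood at 92.1 ± 16.1, 77.3 ± 7.05, 79.6 ± 1.92 and 85 ± 8.24 CPM in the same order of depots, with a brown minus white log2 difference of -0.04 (SE 0.09, edgeR adjusted p = 0.741).

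Of the 8 tested inward rectifiers, 3 were higher in brown fat and 3 lower (31.3% and 38.1% of all tested genes). Kcnj12, encoding the strong rectifier Kir2.2, measured 1.04, 0.96 and 1.81 CPM in iBAT, 5.09, 2.18 and 1.71 in scBAT, 0.56, 0.57 and 0.10 in iWAT, and 0.11, 0.36 and 0.44 in eWAT (log2 difference 2.46, SE 0.48, edgeR adjusted p = 0.000958). Brown and white libraries did not overlap, and scBAT 1 was highest. Kcnj14 (Kir2.4) was lower in brown fat. It measured 0.18, 0.19 and 0.19 CPM in iBAT, 0.12, 0.28 and 0.51 in scBAT, 3.38, 6.43 and 1.51 in iWAT, and 2.52, 2.5 and 2.35 in eWAT (log2 difference -3.63, SE 0.41, edgeR adjusted p = 2.11e-05). No brown library reached the lowest white one. Kcnj15 (Kir4.2) was 5.42-fold lower in brown fat, and Kcnj2 (Kir2.1) 1.86-fold lower (log2 difference -0.90, edgeR adjusted p = 0.0206). The Kcnj2 difference was of like size but not called without iBAT 1 (-0.84, edgeR adjusted p = 0.0503). It was also -0.84 without iWAT 1 and 3, where iWAT was a single library. Library scBAT 1 held 7.21 CPM of Kcnj2, against 1.85 to 2.71 in the other brown libraries. Without scBAT 1 the log2 difference was -1.32 (edgeR adjusted p = 7.47e-05). The part of muscle RNA in the Kcnj2 level of scBAT 1 was not tested.

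Among voltage-gated pore and modifier subunits, 12 of 25 tested members were higher in brown fat and 9 lower (31.3% and 38.1% of all tested genes). Kcns3, whose Kv9.3 product is silent alone and modifies other voltage-gated channels, measured 36.8, 33.5 and 33.3 CPM in iBAT, 32.1, 29 and 37.8 in scBAT, 27.3, 51 and 15.3 in iWAT, and 70.3, 70.1 and 58.6 in eWAT. Libraries of eWAT were highest and the iWAT libraries spanned the brown range. Kcns3 was not called between brown and white fat (log2 difference -0.43, edgeR adjusted p = 0.119); it was called lower in brown fat without iWAT 3 (log2 difference -0.59, edgeR adjusted p = 0.00452) and without iWAT 1 and 3 (log2 difference -0.77, edgeR adjusted p = 1.71e-05).

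Kcna5, encoding Kv1.5, measured 33.9, 32.6 and 40.2 CPM in iBAT, 30.0, 36.2 and 33.2 in scBAT, 13.1, 30.2 and 6.49 in iWAT, and 21.5, 22.4 and 27.9 in eWAT. Library iWAT 2 reached the lowest brown library while iWAT 1 and 3 lay far below. The log2 difference was 0.79 (SE 0.29, edgeR adjusted p = 0.0317). The call was lost without any 1 of iBAT 1, iBAT 3, scBAT 2, scBAT 3, iWAT 1, eWAT 1 and eWAT 2. In these fits the log2 differences were between 0.71 and 0.81, with edgeR adjusted p up to 0.072. With scBAT 1 and 2 left out, which leaves 1 scBAT library, the log2 difference was 0.80. With iWAT 1 and 3 left out, iWAT 2 being then the only iWAT library, the log2 difference was smaller, at 0.37.

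The related Kv1 genes Kcna1, Kcna2 and Kcna6, which encode channels of myelinated axons, were low in eWAT and not in iWAT. Kcna1 measured 12.8, 11.7 and 9.88 CPM in iBAT, 13.3, 9.52 and 10.8 in scBAT, 9.70, 12.6 and 2.27 in iWAT, and 1.85, 2.89 and 2.45 in eWAT. Only iWAT 3 of the iWAT libraries fell within the eWAT range. All 3 genes were called higher in brown fat, with log2 differences of 1.36, 1.16 and 1.62. Each of the 3 was called against eWAT from both brown depots and against iWAT from neither, which does not by itself compare the white depots. In the direct comparison Kcna1 was called higher in iWAT than in eWAT. That call was lost with limma-voom and without any 1 of iWAT 1, eWAT 1, eWAT 2 and eWAT 3. The direct comparisons of Kcna2 and Kcna6 are given below.

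Kcna7, encoding Kv1.7, showed the second largest log2 difference among the described members that were higher in brown fat. It measured 1.83, 2.04 and 3.81 CPM in iBAT, 11.1, 5.04 and 3.62 in scBAT, 0.11, 0.22 and 0.10 in iWAT, and 0.35, 0.40 and 0.28 in eWAT. Every brown library was above every white one (log2 difference 4.20, SE 0.38, edgeR adjusted p = 3.72e-06). The order of its brown libraries was the same as that of the summed skeletal muscle markers, 492, 749 and 2378 CPM in iBAT 1, 2 and 3 and 7405, 2520 and 2153 in scBAT 1, 2 and 3. All 16 of these markers were higher in brown fat by the edgeR test, and none was at 0 in any depot. Kcnj12 and Kcng4, which encodes a silent modifier, were also highest in scBAT 1, with Kcng4 at 4.78 CPM there against 0.57 to 3.14 in the other brown libraries. The part of muscle RNA in these 3 members was not tested. With scBAT 1 and 2 left out, which leaves 1 scBAT library, the log2 difference was 3.78 for Kcna7, 2.07 for Kcnj12 and 0.59 for Kcng4. These libraries were left out for their salivary gland marker sums. The brown libraries that remained had muscle marker sums of 492 to 2378 CPM, against 71.7 to 266 in white fat. Leaving them out therefore could not test the part of muscle RNA. The Kcng4 call was lost without iBAT 1 (0.92, edgeR adjusted p = 0.0597) or scBAT 1 (0.87, 0.0564).

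Kcnh2, encoding the ERG1 channel of cardiac repolarisation, measured 0.86, 1.08 and 1.42 CPM in iBAT, 0.87, 1.1 and 2.09 in scBAT, 9, 14.1 and 7.90 in iWAT, and 9.44, 7.77 and 10.2 in eWAT. White libraries all exceeded the brown ones, 7.84-fold in the fit (log2 difference -2.97, SE 0.25, edgeR adjusted p = 2.54e-06). Kcnh3 and Kcnh4 of the same family were also lower in brown fat. For Kcnh3 the brown libraries held 0 or 1 read each, while iWAT 2 held none as well and the other white libraries measured 0.79 to 2.30 CPM; its call was lost with iWAT 1 and 3 left out (edgeR adjusted p = 0.925). Kcnq1 (Kv7.1) was 2.34-fold lower in brown fat. The noncoding Kcnq1ot1 lies within the span of Kcnq1 on the opposite strand, sharing 121 exonic bases, and the strand setting of the counting is not given in the sources used here, so reads of this pair are uncertain. Kcnq1ot1 stood between 5.20 and 13.4 CPM in all libraries and was not called (log2 difference -0.25, SE 0.18, edgeR adjusted p = 0.239).

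**Figure D3:**
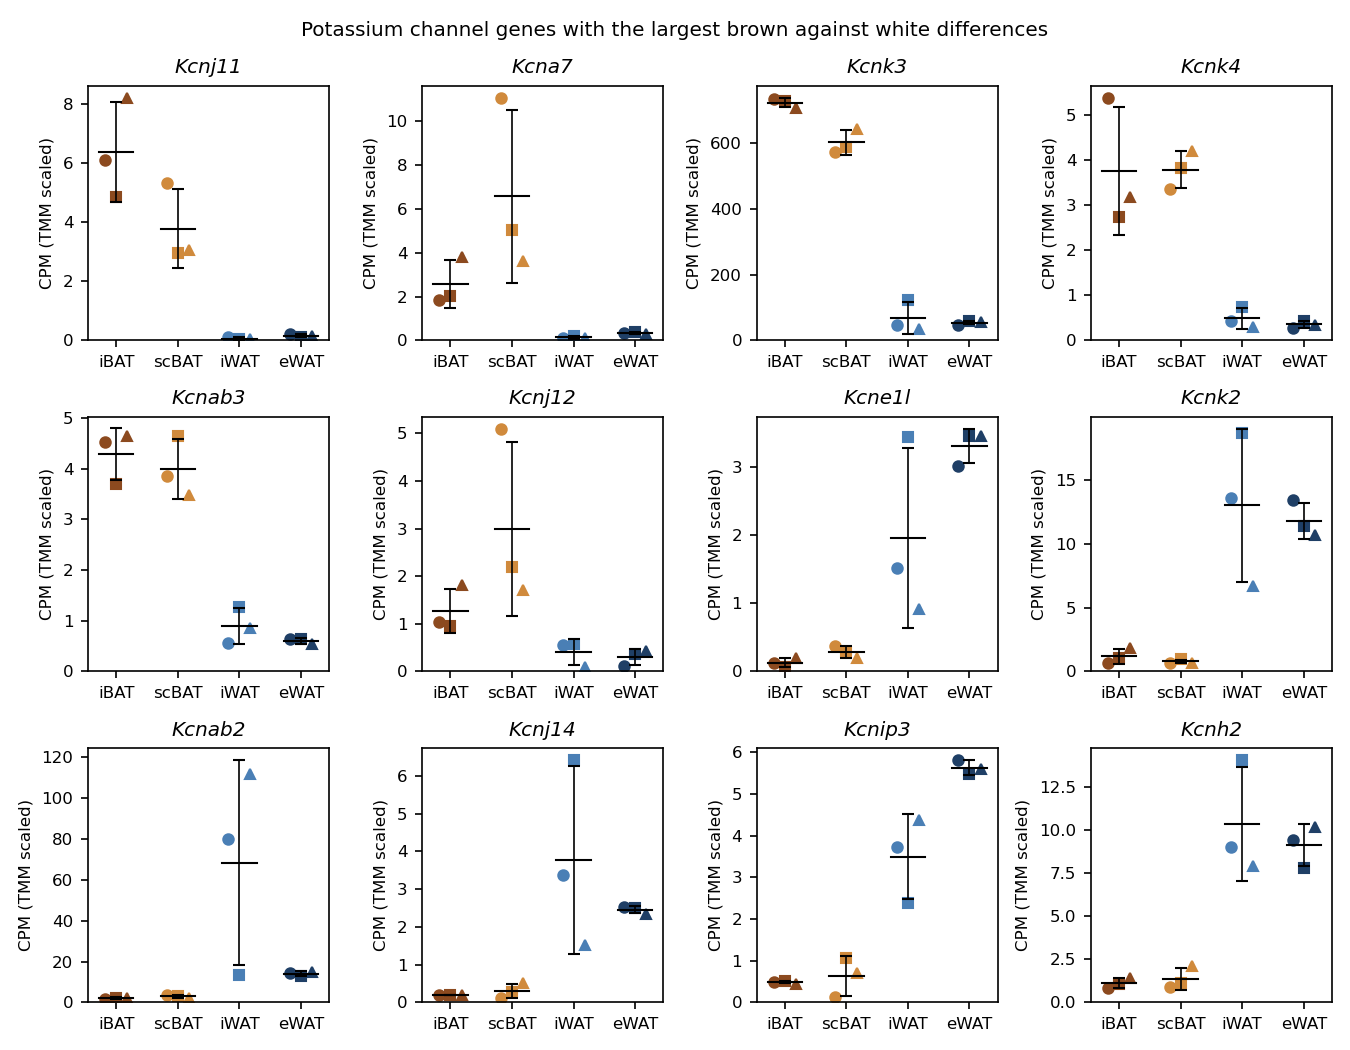
CPM (vertical axes, linear from 0, a separate scale for each gene) in the 4 depots (horizontal axes) of the 12 members with the largest brown against white differences whose libraries did not overlap. Points are libraries 1 (circle), 2 (square) and 3 (triangle), lines are means and bars ± SD, n = 3; iWAT 1 and 3 lie far above iWAT 2 for Kcnab2, and scBAT 1 is highest for Kcna7 and Kcnj12.

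Of 9 tested auxiliary subunits of voltage-gated channels, 1 was higher in brown fat and 8 were lower (31.3% and 38.1% of all tested genes). The 1 that was higher was Kcnab3, a beta subunit, at 4.52, 3.70 and 4.65 CPM in iBAT, 3.85, 4.65 and 3.49 in scBAT, 0.56, 1.28 and 0.86 in iWAT, and 0.64, 0.63 and 0.53 in eWAT. Its brown libraries lay above all white ones (log2 difference 2.49, SE 0.21, edgeR adjusted p = 2.43e-06). The related Kcnab2 measured 1.77, 2.17 and 2.39 CPM in iBAT, 3.42, 3.31 and 1.97 in scBAT, 79.8, 13.5 and 112 in iWAT, and 14.6, 12.8 and 14.8 in eWAT. White libraries were all higher, with iWAT 1 and 3 far above the rest (log2 difference -3.65, SE 0.44, edgeR adjusted p = 3.3e-05). With those libraries left out it was -2.46 (edgeR adjusted p = 2.52e-07), iWAT then being a single library assumed to vary like the other depots.

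Kcne1l, a small single-pass subunit of the Kcne family, measured 0.12, 0.06 and 0.19 CPM in iBAT, 0.37, 0.28 and 0.19 in scBAT, 1.51, 3.43 and 0.92 in iWAT, and 3.02, 3.45 and 3.45 in eWAT. Brown and white libraries did not overlap (log2 difference -3.71, SE 0.39, edgeR adjusted p = 1.19e-05). Kcnip3, a calcium-binding partner of Kv4 channels, measured 0.49, 0.51 and 0.45 CPM in iBAT, 0.12, 1.06 and 0.70 in scBAT, 3.73, 2.38 and 4.38 in iWAT, and 5.82, 5.47 and 5.61 in eWAT (log2 difference -2.99, SE 0.36, edgeR adjusted p = 3.04e-05). Again no brown library reached a white one. Kcne4, which restrains Kv1 and Kv7 channels, was 6.32-fold lower in brown fat. With iWAT 1 and 3 left out, Kcnip2 and Kcnip4, also partners of Kv4 channels, were not called: the log2 difference went from -1.76 to -0.59 for Kcnip2 (edgeR adjusted p = 0.262) and from -0.82 to -0.76 for Kcnip4 (0.065). Kcnip4 was also not called without scBAT 1 and 2 (-0.87, 0.053).

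Calcium- and sodium-activated pores, as grouped by symbol, gave 1 higher and 4 lower of 7 tested (31.3% and 38.1% of all tested genes). Kcnu1, which stayed under 1 CPM, was among the lower. Kcnn1, encoding a small-conductance calcium-activated channel, measured 16.6, 15.0 and 16.3 CPM in iBAT, 12.9, 13.1 and 17.1 in scBAT, 4.82, 8.85 and 3.09 in iWAT, and 6.53, 6.15 and 5.89 in eWAT. Its brown libraries were all above its white ones (log2 difference 1.37, SE 0.22, edgeR adjusted p = 0.000231). Kcnma1, the pore of the BK channel, was called lower (log2 difference -0.98, edgeR adjusted p = 0.0353). The call was lost without any 1 of iBAT 1, iBAT 2, iWAT 1, iWAT 3, eWAT 2 and eWAT 3, with log2 differences between -0.97 and -0.87 and edgeR adjusted p up to 0.0865, and without iWAT 1 and 3 (-0.92, 0.109). Without scBAT 1 and 2 the difference was -1.92 (0.00186). Its scBAT libraries measured 4.04, 5.10 and 0.89 CPM, and iBAT 0.73, 0.77 and 1.68. Marker levels of other cell types moved with the members that were lower in brown fat: the 9 macrophage markers in the table were all lower there, with sums of 1377 to 1606 CPM in iWAT, 1431 to 1553 in eWAT, 213 to 267 in iBAT and 391 to 431 in scBAT and none at 0, and 6 of 7 adipose progenitor markers were lower. Their part in the members' differences was not tested.

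Between the brown depots no member was called by edgeR at adjusted p under 0.05, of 57 tested, where 0.235% of all tested genes were higher in scBAT and 0.094% lower. At an unadjusted edgeR p under 0.05 there were 11. All tested genes were not counted at that level, so this number does not set the members apart. Limma-voom called 0 members, and 21 of all tested genes higher and 8 lower. DESeq2 called 3 members higher in scBAT, and 181 of all tested genes higher and 29 lower. The 3 were Kcnn4, Kcnk1 and Kcnk13, with DESeq2 adjusted p of 0.000431, 0.029 and 0.0498. Of 9 macrophage markers, 5 were called higher in scBAT than in iBAT by edgeR, with a median log2 difference of 0.87 over the 9 and the sums given above; their part in these 3 members was not tested. Kcnn4, encoding the intermediate-conductance calcium-activated channel of lymphocytes and secretory epithelia, measured 1.04, 1.85 and 1.55 CPM in iBAT, 16.7, 44.1 and 3.62 in scBAT, 35.9, 6.03 and 58.9 in iWAT, and 5.96, 9.44 and 6.46 in eWAT. Libraries scBAT 1 and 2 were high among the brown ones, and iWAT 1 and 3 were high among the white ones. Kcns1 was highest in the same pair of scBAT libraries, at 1.99 and 5.55 CPM against 0.13 in scBAT 3 and 0 to 0.44 in all others, and Kcnk1, which encodes TWIK-1, at 2.17 and 4.15 CPM against 0.25 in scBAT 3 and 0 to 0.13 in iBAT.

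The same libraries, scBAT 1 and 2, held the highest salivary gland marker sums, and iWAT 1 and 3 the highest lymphocyte marker sums. Of the 7 salivary markers 4 were tested, and none of these was called between scBAT and iBAT. The part of either tissue in the levels of Kcnn4, Kcns1 and Kcnk1 was not tested. Kcnn4 was not called between brown and white fat (log2 difference -1.47, SE 0.62, edgeR adjusted p = 0.0538). It was called lower in brown fat without scBAT 2 (log2 difference -2.00, edgeR adjusted p = 0.014), without iWAT 2 (-1.70, 0.0224) and without scBAT 1 and 2 (-2.74, 0.0111).

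Between the white depots, 11 of 57 tested members were higher in iWAT, where 17.7% of all tested genes were, and 10 were lower, where 11% of all tested genes were. The counts depended on the iWAT libraries. Without iWAT 2 they were 19 higher and 19 lower, and without iWAT 1 they were 5 and 6. With both iWAT 1 and iWAT 3 left out, iWAT was a single library. Fewer calls were then made, among the members and over all tested genes alike. Leaving out eWAT 1 gave 4 members higher and 6 lower. Leaving out eWAT 2 gave 4 and 7. Calls over all tested genes moved too, from 2631 higher and 1646 lower with all libraries. They were 5326 and 4997 without iWAT 2, and 852 and 493 without iWAT 1. Without eWAT 1 they were 641 and 580, and without eWAT 2 they were 957 and 761. These shifts were thus not particular to the members.

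Kcna3, encoding Kv1.3, the main voltage-gated potassium channel of T cells, measured 19.4, 1.41 and 19.8 CPM in iWAT, 0.35, 0.63 and 0.50 in eWAT, 0.49, 0.32 and 0.26 in iBAT, and 0.19, 0.22 and 0.19 in scBAT. Libraries iWAT 1 and 3 stood apart from the rest (iWAT minus eWAT log2 difference 4.76, SE 0.80, edgeR adjusted p = 0.00487). With them left out it was 1.52 and not called (edgeR adjusted p = 0.121). Kcnj10 (Kir4.1), a glial and epithelial rectifier, had the largest log2 difference, 5.52 (SE 0.96, edgeR adjusted p = 0.00524). It measured 4.75, 0.48 and 6.78 CPM in iWAT and 0.11, 0.08 and 0.06 in eWAT, and its partner Kcnj16 (Kir5.1) measured 4.32, 0.35 and 4.84 in iWAT and 0.18, 0.16 and 0.13 in eWAT. In both, iWAT 1 and 3 were high and iWAT 2 lay nearer to eWAT.

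Kcnj16 gave a log2 difference of 4.33 (SE 0.97, edgeR adjusted p = 0.0131), lost without eWAT 1 (adjusted p = 0.0561), eWAT 2 (0.0507) or eWAT 3 (0.0544) by the same test. With iWAT 1 and 3 left out, the log2 difference was 2.49 for Kcnj10 (edgeR adjusted p = 0.121) and 1.19 for Kcnj16 (0.622). Kcnab2 was called higher in iWAT (log2 difference 2.29, edgeR adjusted p = 0.0179), and without those libraries it was -0.04 (0.965). The Kcnab2 call was also lost without any 1 of iWAT 1, iWAT 3, eWAT 1, eWAT 2 and eWAT 3, with edgeR adjusted p of 0.0566 to 0.0648. Kcng1, Kcng3 and Kcnj1, which were not tested, reached 1.19 to 2.44 CPM in iWAT 1 and 3 and 0 to 0.13 CPM in all other libraries. All 8 B cell and all 10 T cell markers were higher in iWAT than in eWAT, none of them at 0 in any depot, with the sums given above; their part in these members was not tested.

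Kcna6 (Kv1.6) did not follow those libraries. It measured 5.20, 4.18 and 2.77 CPM in iWAT, 0.25, 0.75 and 0.28 in eWAT, 3.36, 4.21 and 4 in iBAT, and 4.60, 3.87 and 4.31 in scBAT. Only eWAT was low (iWAT minus eWAT log2 difference 3.25, SE 0.41, edgeR adjusted p = 0.00135), and with iWAT 1 and 3 left out the log2 difference was 3.32 (0.0015). Kcna2 (Kv1.2) measured 40.1, 16.4 and 35.7 CPM in iWAT and 2.41, 4.88 and 2.67 in eWAT (log2 difference 3.22, SE 0.47, edgeR adjusted p = 0.00288). Without iWAT 1 and 3 it was 2.34 (edgeR adjusted p = 0.0585). Of the 8 Schwann cell and nerve markers 6 were higher in iWAT than in eWAT, none was at 0 in any depot, and their sums overlapped, at 250 to 502 CPM in iWAT and 329 to 387 in eWAT, with 294 to 362 in iBAT and 302 to 374 in scBAT. Their part in the Kv1 genes was not tested.

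Kcnq5 (Kv7.5) measured 4.82, 1.36 and 6.09 CPM in iWAT and 1.14, 1.19 and 1.10 in eWAT (log2 difference 1.84, SE 0.45, edgeR adjusted p = 0.0174). The libraries did not overlap, but iWAT 2 was close to eWAT. The call was lost without iWAT 1 (edgeR adjusted p = 0.0625), iWAT 3 (0.0572), eWAT 1 (0.0641), eWAT 2 (0.0552) or eWAT 3 (0.0611), and without iWAT 1 and 3 together (log2 difference 0.28, 0.736).

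**Figure D4:**
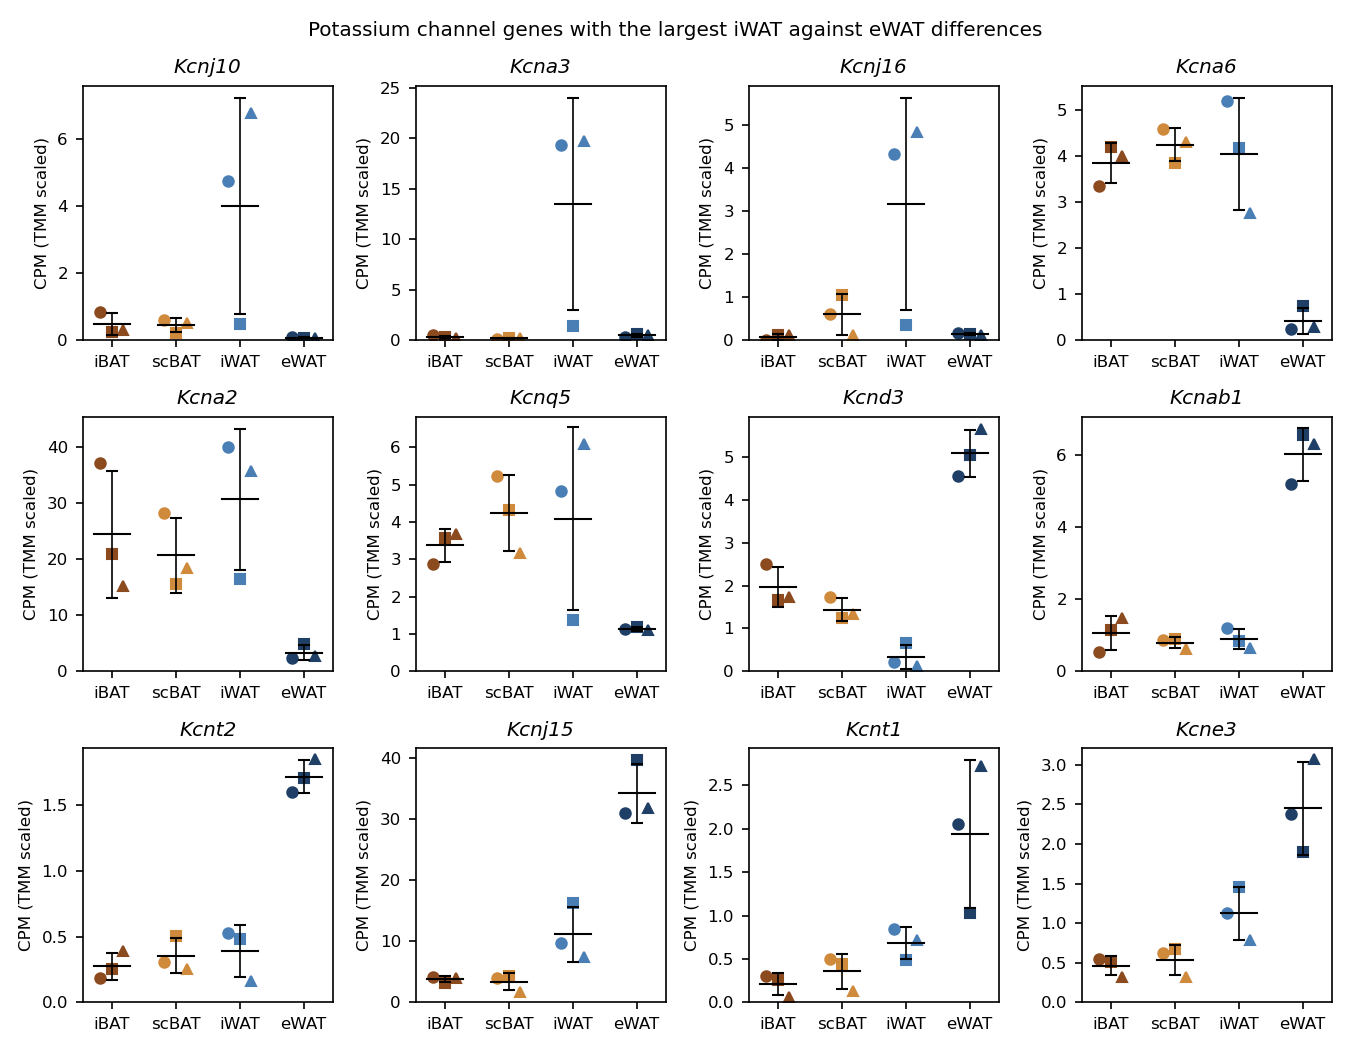
CPM (vertical axes, linear from 0, a separate scale for each gene) in the 4 depots (horizontal axes) of the 12 members with the largest iWAT against eWAT differences whose libraries did not overlap. Points are libraries 1 (circle), 2 (square) and 3 (triangle), lines are means and bars ± SD, n = 3; for Kcnj10, Kcna3 and Kcnj16 the iWAT 2 library (square) lies far below iWAT 1 and 3, and for Kcnd3 and Kcnab1 the 3 eWAT libraries stand above all others.

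Several members were highest in eWAT. Kcnd3, encoding the A-type channel Kv4.3, measured 0.21, 0.66 and 0.13 CPM in iWAT, 4.54, 5.04 and 5.64 in eWAT, 2.51, 1.66 and 1.74 in iBAT, and 1.74, 1.23 and 1.33 in scBAT. The brown depots lay between the white ones without overlap. Its iWAT minus eWAT log2 difference was -3.95 (SE 0.48, edgeR adjusted p = 0.00119), and -2.91 with iWAT 1 and 3 left out (0.00203). Kcnd3 was not called between brown and white fat (log2 difference 0.39, edgeR adjusted p = 0.292), and each of its 4 pairs was called, 2 in each direction.

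Kcnab1, a beta subunit, measured 1.20, 0.84 and 0.66 CPM in iWAT and 5.18, 6.54 and 6.30 in eWAT, with 0.55 to 1.49 in the brown libraries. Its eWAT libraries stood apart (log2 difference -2.74, SE 0.36, edgeR adjusted p = 0.00155), also with iWAT 1 and 3 left out (-2.81, 0.00889). Kcnj15 measured 9.74, 16.2 and 7.47 CPM in iWAT and 31.1, 39.8 and 31.8 in eWAT, with 1.78 to 4.37 in the brown libraries (log2 difference -1.62, SE 0.33, edgeR adjusted p = 0.0096). The eWAT libraries were again highest, and with iWAT 1 and 3 left out the difference was -1.06 (0.138). Kcnt2 and Kcnt1, which encode sodium-activated channels, and Kcne3, an auxiliary subunit, were lower in iWAT by 4.38-fold, 2.81-fold and 2.19-fold.

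Kcnt2 measured 0.53, 0.48 and 0.16 CPM in iWAT and 1.60, 1.71 and 1.85 in eWAT (edgeR adjusted p = 0.00789), and was not called with iWAT 1 and 3 left out (log2 difference -1.79, 0.0925). Kcnt1 measured 0.84, 0.48 and 0.72 CPM in iWAT and 2.06, 1.03 and 2.73 in eWAT (edgeR adjusted p = 0.0461). Its call was lost without any 1 of iBAT 1, iBAT 2, scBAT 1, scBAT 2, iWAT 1, iWAT 3, eWAT 1, eWAT 2 and eWAT 3, with edgeR adjusted p from 0.0525 to 0.149. Kcne3 measured 1.13, 1.45 and 0.79 CPM in iWAT and 2.38, 1.90 and 3.07 in eWAT (edgeR adjusted p = 0.0338). Its call was lost without any 1 of iBAT 1, iBAT 2, iWAT 1, iWAT 3, eWAT 1, eWAT 2 and eWAT 3, with edgeR adjusted p from 0.05003 to 0.124. All 8 mesothelium markers were higher in eWAT than in iWAT, with sums of 418 to 578 CPM in eWAT, 3.49 to 8.14 in iWAT, 7.84 to 9.95 in iBAT and 11.3 to 45.4 in scBAT; Upk3b, Upk1b and Wt1 were at 0 in both brown depots. Their part in the members that were high in eWAT was not tested.

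Other genes that handle potassium or partner the channels were read from lists. In brown against white fat, where 31.3% of all tested genes were higher and 38.1% lower, 3 of 13 tested genes of the sodium-potassium pump were higher and 5 lower. Of 7 tested cation-chloride cotransporters 2 were higher and 2 lower, with Slc12a7, which carries potassium and chloride out of the cell, at 1.95-fold higher (edgeR adjusted p = 1.42e-06) and Slc12a4, of the same group, 1.82-fold lower. Of 6 tested other potassium channel proteins 2 were higher and 2 lower. Tmem38b, a trimeric intracellular cation channel, was 3.77-fold higher, and its relative Tmem38a 5.33-fold higher. Hcn4 was 6.74-fold lower and Tmem175 1.31-fold lower. Tmem38a averaged 49.8 ± 28.7 CPM in scBAT and 28.5 ± 9.66 in iBAT, and the part of muscle RNA in it was not tested. Of 14 tested voltage-gated calcium channel subunits 1 was higher and 7 lower (31.3% and 38.1% of all tested genes), among the latter Cacna1e (log2 difference -6.30, edgeR adjusted p = 1.85e-05) and Cacna1d (-2.88, 8.54e-06). The 1 that was higher, Cacna1s, encodes the pore of skeletal muscle and averaged 24.8 ± 17.9 CPM in scBAT and 8.5 ± 7.07 in iBAT, the depots with the highest skeletal muscle marker sums. Of 3 tested BK gamma subunits 1 was higher in brown fat, Lrrc38, which averaged 0.38 ± 0.29 CPM in iBAT and 1.25 ± 0.97 in scBAT and had no reads in iWAT. Neither of the 2 transmembrane partners of Kv4 channels passed the count filter.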

How the data were processed

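Total RNA was made into TruSeq RNA libraries, per the labels' protocols. The deposited values are whole-number raw counts of reads per gene symbol and library, to which the authors applied no normalization. The submitters' processing notes name build mm10, HTSeq 0.6.1p1, STAR 2.4.2a, edgeR, bcl2fastq 1.8.3 and Picard 1.119, without saying how each was used. The gene annotation and strand setting are not given in the sources used here.

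Counts were fitted in edgeR 4.0.16 (R 4.3.3) with TMM factors, the filterByExpr filter on depot, a mean per depot over all 12 libraries (8 residual degrees of freedom), robust quasi-likelihood F tests and Benjamini-Hochberg adjustment over 14898 genes, which held 99.7% or more of every library's counts. SE is the log2 difference divided by the square root of F. The biological coefficient of variation was 26.1%. Alternatives were other scalings, no filter, DESeq2 1.42.0, limma-voom (limma 3.58.1), a replicate block and left-out libraries. The fit was tested on simulated data. No pair of libraries was a duplicate. Exon lengths were from GENCODE M21, positions and promoters from RefSeq GRCm38.p6.

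The members, lists and tests were chosen with earlier results of these data known. Values per library are given for Kcnk3, for up to 6 described members in each direction with the largest called difference and no overlap between libraries in a contrast, for the 5 with the highest mean, and for those with a depot mean of at least 10 CPM not called between brown and white fat. Kcna1, Kcnn1, Kcng4, Kcnh3, Kcnk1, Kcns1, Kcnma1, Kcng1, Kcng3 and Kcnj1 were given values after these had been seen. So was the choice to leave out scBAT 1 and 2. Values of a few genes are not reported here.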

Additional observations from a re-analysis of the deposited data

How the results depend on the processing

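Kcnk3 stayed higher in brown fat at edgeR, DESeq2 or limma adjusted p under 0.05 under every alternative run, with log2 differences of 3.29 to 3.83 when 1 library was left out and 3.03 without iWAT 1 and 3. Of 609 log2 differences under the alternatives, each of a member in the contrast that named it, 552 kept their call, 50 lost it, 7 gained one and 0 changed sign. Over all members called, 1 changed sign, Kcnab2 in iWAT minus eWAT without iWAT 1 and 3. The number of members called higher in scBAT than in iBAT was 3 with DESeq2, where 181 of all tested genes were. The number higher in iWAT than in eWAT was 6 with limma-voom, where 1479 of all tested genes were, and 4 to 19 with 1 library left out. The number lower was 6 to 19 with 1 library left out. Both numbers were smaller without iWAT 1 and 3, where iWAT was a single library. The number lower in all 4 brown against white pairs was smaller without scBAT 1 and 2. That setting was chosen after seeing the data and left 1 scBAT library. Between the white depots, calls over all tested genes also moved with 1 library left out, spanning 641 to 5326 higher and 493 to 4997 lower. The cause of these changes was not tested. Replicate numbers are shared between depots, but no label says that they mark an animal. Same-numbered libraries had correlations of -0.174 to 0.221 over 18 pairs, 6 above 0.1, and 4 of 12 libraries correlated best with their own number. With the replicate number as a block, 19 members were higher and 27 lower in brown fat, 0 and 0 differed between the brown depots, 11 were higher and 9 lower in iWAT than in eWAT, 9 were higher and 14 lower in all 4 pairs, and the log2 difference of Kcnk3 was 3.51; the block ended the calls of Kcnma1 in brown minus white and Kcnt1 in iWAT minus eWAT. Over all tested genes the block gave 4618 higher and 5502 lower in brown fat. It gave 10 higher and 8 lower in scBAT than in iBAT, and 1876 higher and 1384 lower in iWAT than in eWAT. The 4 pairs were not counted over all tested genes with the block. The minimum for description gave 61 members at 0.5 CPM and 44 at 2 CPM, against 55, and 56 without TMM factors. Upper quartile scaling moved the median of all tested genes in brown minus white to -0.17, ended the call of Kcna5 (log2 difference 0.71, adjusted p = 0.0553 with edgeR) and called Kcnn4 (-1.52, 0.0467). Members under about 1 CPM rest on few reads, so that a missing call there was not detectable at this depth rather than absent.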
